A study of Homo sapiens with 10 samples.

Results

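GC-rich interior windows are stretches of 100 kb of the human autosomes in which at least 50% of the sequenced bases are G or C. The autosomes of GRCh38 were divided into 28738 non-overlapping windows from the first base of each chromosome. A window was kept as interior when it lay at least 5 Mb from both chromosome ends and less than 5% of its bases were unsequenced, which left 25467 windows. Of these, 1132 had a GC content of 50% or more and are the members described here. The 8878 interior windows with a GC content below 38% are called GC-poor and serve for comparison. Whether a window is a member depends on the reference sequence alone, and on no value measured in the cells.

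The data came from human induced pluripotent stem cells (hiPSCs) of the line PB010.5, a single line that carries a fluorescent cell cycle (FUCCI) reporter. Undifferentiated cells were digested for 5 min with micrococcal nuclease (MNase) at 10, 6, 3, 1 or 0.5 U, mononucleosomal DNA of the yeast strain BY4742 was added after digestion, and 1 library was made per concentration. The 5 libraries went through a run with reads of 150 bp and a run with reads of 50 bp, which makes 10 samples. What was analysed is 1 list of 12921589 nucleosome positions called by the authors on pooled libraries. It holds an interval of 140 bp and a score for each position and no value for a single concentration, so there are no replicates, no difference between concentrations was examined and no test was made. According to the methods, the shorter reads could not be carried through to nucleosome profiling. The runs that were pooled are not named.

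In a nucleosome, DNA is wrapped around a core of histone proteins, and linker DNA joins it to the next. The distance from one nucleosome to the next along an array is the repeat length. MNase cuts linker DNA more readily than wrapped DNA and also cuts A/T-rich DNA more readily than G/C-rich DNA. The human genome alternates over long distances between GC-rich stretches, which hold many genes and CpG dinucleotides, and GC-poor stretches, which hold few. Each library was amplified by PCR, whose yield can also depend on base composition. More nucleosomes on GC-rich DNA and better recovery of GC-rich fragments cannot be told apart in this list, and this holds for every density and score below.

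The position nearest to the median local GC and median score of its class, and the next nearest on another autosome, show what an ordinary member and an ordinary GC-poor position look like. Each is the deposited interval of 140 bp, read 5′ to 3′ on the + strand of GRCh38, with CpG dinucleotides in capitals. None overlaps an annotated exon.
GC-rich position chr1:5717322-5717461: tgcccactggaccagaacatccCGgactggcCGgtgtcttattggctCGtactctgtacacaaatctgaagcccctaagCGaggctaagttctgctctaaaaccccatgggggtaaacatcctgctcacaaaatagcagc
GC-rich position chr2:8572212-8572351: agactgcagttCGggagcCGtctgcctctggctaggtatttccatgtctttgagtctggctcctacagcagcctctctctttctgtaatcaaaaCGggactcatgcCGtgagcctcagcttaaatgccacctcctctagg
GC-poor position chr1:20969092-20969231: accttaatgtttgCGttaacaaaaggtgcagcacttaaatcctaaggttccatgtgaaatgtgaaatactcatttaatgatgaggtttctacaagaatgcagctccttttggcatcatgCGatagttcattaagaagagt
GC-poor position chr2:5179442-5179581: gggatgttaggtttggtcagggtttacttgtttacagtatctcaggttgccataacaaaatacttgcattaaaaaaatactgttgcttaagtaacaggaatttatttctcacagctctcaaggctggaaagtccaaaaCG
The GC-rich position on chromosome 1 lay outside annotated genes and that on chromosome 2 lay in an intron of LINC01814, a long non-coding RNA gene. Both had a score of 19.7, a local GC content of 53.1%, taken over the length of a nucleosome core particle around the midpoint, and 4 CpG in the interval. Of the GC-poor positions, that on chromosome 1 lay in an intron of EIF4G3, which encodes a translation initiation factor, and that on chromosome 2 lay outside genes. These had a score of 12.3, a local GC of 37.4%, and 2 and 1 CpG. The distances to the neighbouring midpoints were 110 and 170 bp for the GC-rich position on chromosome 1, and 140 and 250 bp for that on chromosome 2. For the GC-poor positions they were 140 and 240 bp, and 330 and 130 bp.

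The members covered 113 Mb. Their median GC was 51.9%, and it ranged from 50.0 to 60.8%, whereas the median of the GC-poor windows was 36.3%. They lay on 21 of the 22 autosomes, with none on chromosome 13. Chromosome 19 held 190 of them, or 39.3% of its own interior windows, followed by chromosome 1 with 125, chromosome 17 with 112 and chromosome 22 with 88. Many lay side by side. The members formed 565 runs, 802 members had another member next to them, and the longest run was 27 windows on chromosome 19. Windows are therefore not independent of each other.

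GC-rich windows held 20.3 CpG per kb against 6.10 in GC-poor windows, and 25.3 starts of protein-coding genes per Mb against 2.01. Annotated genes covered 73.5% of their bases and exons 14.1%. In GC-poor windows the shares were 54.9 and 2.49%. Even so, 235 members, or 20.8%, held no start of a protein-coding gene, against 63.9% of all interior windows and 85.8% of GC-poor windows.

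Nucleosome positions were denser in GC-rich windows. The members held 612611 positions, 4.91% of those on the autosomes, at 5412 per Mb, against 4130 per Mb in GC-poor windows and 4520 per Mb in all interior windows. The ratio of GC-rich to GC-poor density was 1.31. Single GC-rich windows had a median of 5570 positions per Mb, with the 10th and 90th percentiles at 5290 and 5740. In GC-poor windows the median was 4240 and these percentiles were 3710 and 4660. Of the 1132 members, 932 (82.3%) had a density in the top decile of the interior windows, at or above 5410 per Mb. The share of all interior windows at or above this value was 10.4%, and none of the 8878 GC-poor windows reached it.

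Autosomes served as strata, and 18 of them had at least 10 windows of both classes. Chromosomes 13, 18, 19 and 21 did not, so the 190 members of chromosome 19, the most of any autosome, are outside each value over 18 autosomes because that chromosome has 5 GC-poor windows. Its members had 5481 positions per Mb, a mean score of 19.9 and 5.68% of neighbour distances above 300 bp, each within the range of GC-rich values on the 18. Their median score, 18.5, equalled the lowest GC-rich value on the 18. GC-rich density was higher than GC-poor density on 18 of the 18. The lowest GC-rich density on an autosome was 4801 per Mb (chromosome 8), the median 5472 and the highest 5624 (chromosome 10). The GC-poor values had a median of 4167 and ranged from 1605 on chromosome 22 to 4331 on chromosome 17, so the 2 sets of values did not overlap. The ratio averaged 1.44 ± 0.481 (SD, n = 18 autosomes). Chromosome 22, with 11 GC-poor windows, had a ratio of 3.32, and without it the ratio averaged 1.33 ± 0.111 (SD, n = 17 autosomes) and ranged from 1.13 to 1.60. The 1.60 was on chromosome 15, although its GC-poor mean neighbour distance, 228 bp, was the shortest of the 18. The 1.13 was on chromosome 8, with mean distances of 182 bp (GC-rich) and 236 bp (GC-poor). There, distances above 1000 bp covered more than 50% of the window in 2 of 15 members. Density outside such stretches was not computed by autosome. The plot of values by autosome shows both classes.

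**Figure D1:**
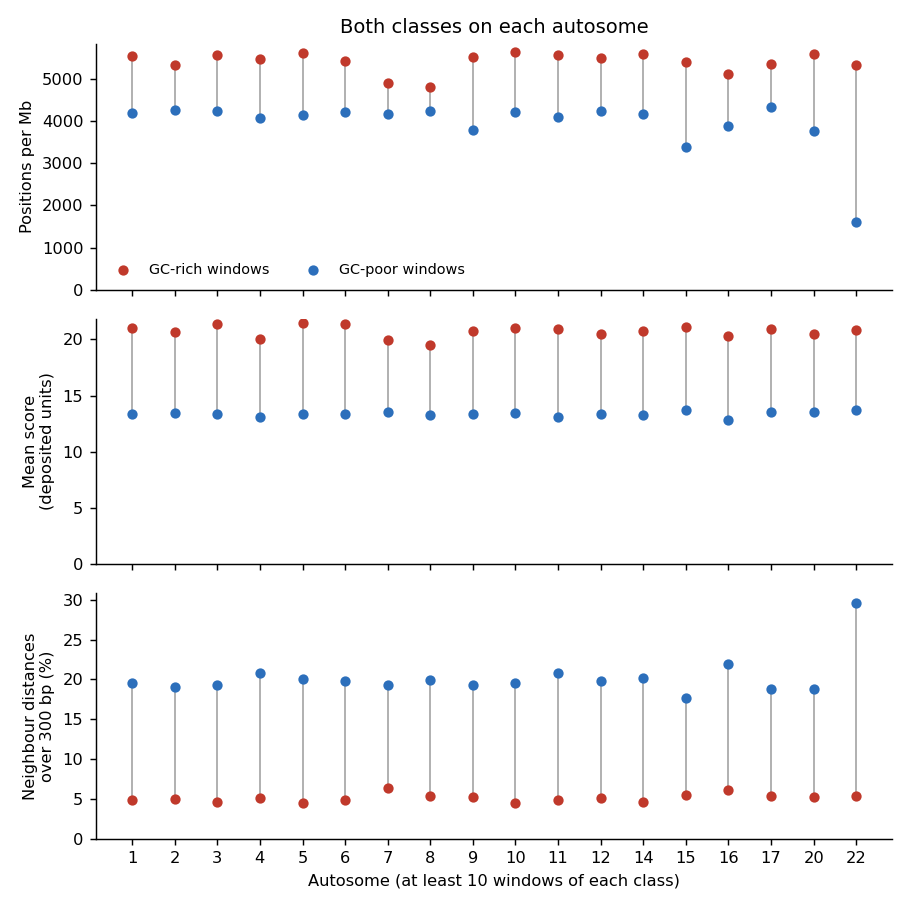
Density of positions per Mb (top), mean score (middle) and share of neighbour distances over 300 bp in percent (bottom) in the GC-rich (red) and GC-poor (blue) windows of each of 18 autosomes, with a grey line joining the pair. Density and score were higher, and long distances fewer, in the GC-rich windows of every autosome shown.

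Long stretches without positions covered less of the members. Distances of more than 1000 bp between neighbouring midpoints covered 2.73% of the bases of GC-rich windows and 5.22% of GC-poor windows. Per Mb of the remaining bases the densities were 5564 and 4357, a ratio of 1.28. In 22 members, or 1.94%, such stretches covered more than 50% of the window, a share close to the 2.19% of GC-poor windows and below the 4.45% of all interior windows. The 22 members lay on chromosomes 7 (6 windows), 16 and 17 (4 each), 22 (3), 2 and 8 (2 each) and 21 (1), and 8 of them held no position. The authors removed blacklisted regions, and whether these windows lie in them was not tested. All are kept in the values given here.

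Density rose with GC over the whole range of interior windows, and the members continued that rise. It was 3865 per Mb below 35% GC, 4196 from 35 to 38%, 4321 from 38 to 41%, 4864 from 41 to 44%, 5030 from 44 to 47% and 5235 from 47 to 50%. These densities include long stretches without positions. Distances above 1000 bp covered 10.6% of the bases from 38 to 41%, against 5.28% from 35 to 38% and 4.61% from 41 to 44%. The median densities of single windows from 35 to 38%, 38 to 41% and 41 to 44% were 4330, 4760 and 5090 per Mb. Within the members it was 5395 from 50 to 53%, 5423 from 53 to 56%, and 5642 in the 42 windows of 56% and above. No step lay at the threshold. The 150 members with the lowest GC, within 0.5 percentage points of the threshold, had 5279 positions per Mb and a median score of 19.7. The 214 windows as close below it had 5237 per Mb and 18.5.

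**Figure D2:**
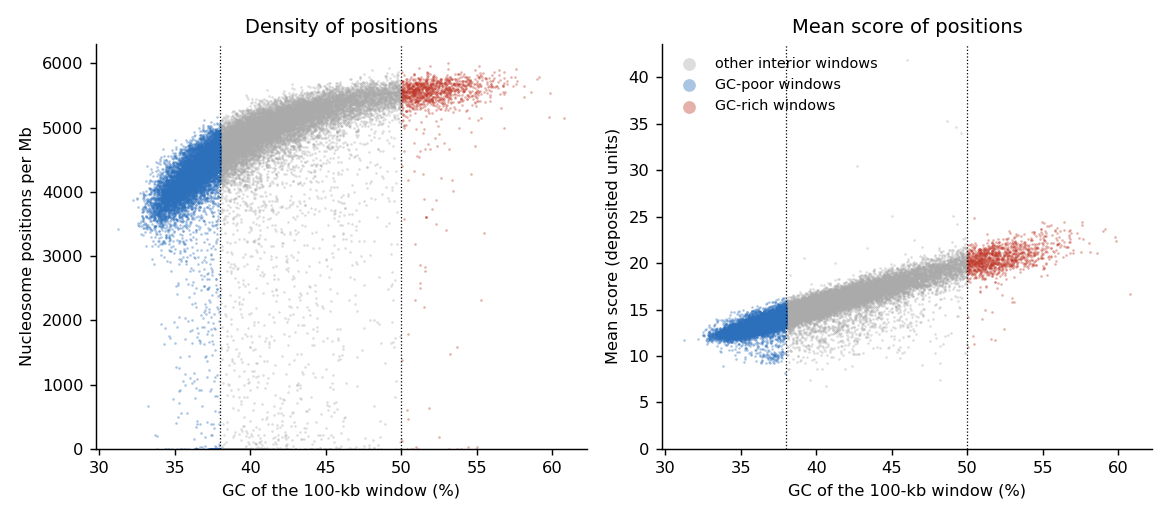
Positions per Mb (left) and mean score in deposited units (right) of each interior window against its GC content in percent, with GC-poor windows in blue, GC-rich windows in red and the others in grey; dotted lines mark 38 and 50%. Density levels off towards the GC-rich windows, most of which lie between 5290 and 5740 per Mb, while the mean score goes on rising.

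Scores were higher in the members as well. The score is a value that the authors' list gives for each position. It moves in steps of 1.23, its scaling is not stated, and the number of reads behind a score is unknown. The median score was 19.7, or 16 steps, in GC-rich windows and 12.3, or 10 steps, in GC-poor windows. The quartiles were 14.8 and 25.9 in GC-rich windows, and 8.64 and 16.04 in GC-poor windows. Scores in the top 5% of all interior positions, ties included, made up 16.4% of the positions in GC-rich windows and 1.94% of those in GC-poor windows.

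The mean score was 20.7 ± 0.522 in GC-rich and 13.4 ± 0.212 in GC-poor windows (SD, n = 18 autosomes). On single autosomes the GC-rich mean ranged from 19.5 to 21.4 and the GC-poor mean from 12.8 to 13.8, with no overlap. Of the members, 1075 (94.96%) had a mean score in the top decile of interior windows, where the share of all interior windows with a position was 10.0% and no GC-poor window reached the decile.

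Positions of like local GC were then set side by side, since positions in GC-rich windows are themselves richer in G and C. Each bin spans 5 percentage points, and GC within a bin was not equalised between the classes. Among positions of 35 to 40% local GC the mean score was 13.5 in GC-rich and 12.8 in GC-poor windows. It was 16 against 15 from 40 to 45%, 18.5 against 17.1 from 45 to 50%, and 20.4 against 18.2 from 50 to 55%. The difference in mean score thus grew from 0.764 to 2.16 over these 4 bins, and in the last of them, which holds 24.5% of the positions of the members, it was 2.38 ± 0.601 on single autosomes (SD, n = 18). For all positions whatever their local GC it was 7.34 ± 0.510 (SD, n = 18 autosomes). In median scores, the differences were 0 in the lower 2 bins, 1.23 from 45 to 50% and 2.47 from 50 to 55%, with a mean of 0.925, against 7.40 for all positions. On single autosomes that mean was 1.15 ± 0.497 (SD, n = 18) and above 0 on 18 of the 18.

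At higher local GC the classes parted. From 55 to 60% the mean scores were 22.9 and 18.5, from 60 to 65% they were 25.04 and 18.7, and from 65 to 70% they were 25.7 and 18.4. The difference in mean score from 60 to 65% was 6.44 ± 1.07 (SD, n = 17 autosomes with at least 50 positions of both classes), and it was above 0 on all 17. In GC-poor windows the median score stayed at 17.3 in each bin from 50 to 70% local GC, while in GC-rich windows it rose from 19.7 to 24.7. Above 70% local GC the means fell in both classes, to 24.2 and 17.6 from 70 to 75% and to 21.7 and 17.5 from 75 to 80%. Few positions of GC-poor windows lie in the highest bins, with 11840 from 60 to 65% and 805 from 75 to 80%. A local GC of 55% or more is common in the members, where the bins from 55 to 70% hold 22.4, 13.1 and 5.21% of all positions, and rare in GC-poor windows, where they hold 2.00, 0.323 and 0.0965%. What else differs between GC-rich DNA in the 2 settings, such as repeats, was not tested.

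**Figure D3:**
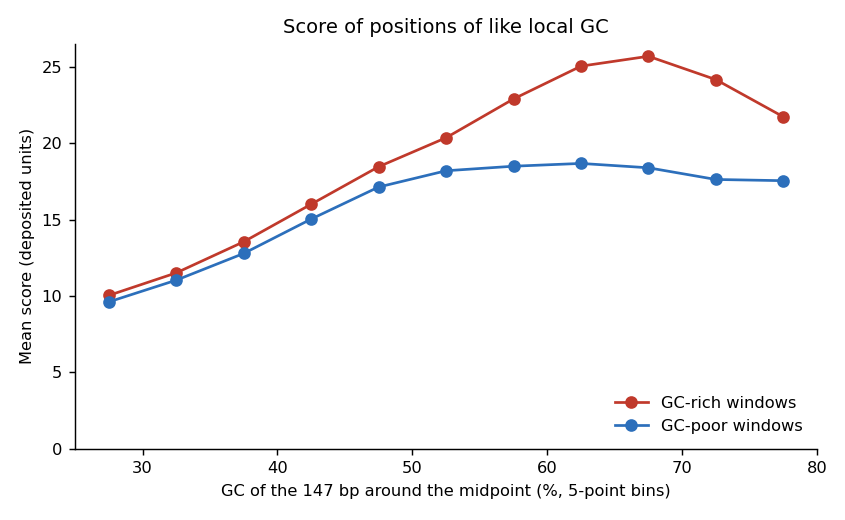
Mean score in deposited units against the local GC around the midpoint in percent, in bins of 5 percentage points, for positions in GC-rich (red) and GC-poor (blue) windows. The curves run close together up to 50% local GC. From 50 to 80%, the last bin drawn, the GC-rich curve rises to 25.7 and then falls to 21.7, while the GC-poor curve stays between 17.5 and 18.7.

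Neighbouring positions lay closer together in the members, and long distances were rarer. Distances were taken between consecutive midpoints in the same window. The median was 170 bp in GC-rich and 190 bp in GC-poor windows, the quartiles 130 and 210 bp against 140 and 270 bp, and the mean 182 against 238 bp. The median was 170 bp on each of the 18 autosomes for GC-rich windows and from 190 to 205 bp for GC-poor windows. Since 94.4% of the midpoints lie on a single 10-bp grid, a median is no finer than about 10 bp. Distances above 300 bp made up 5.26% of all neighbour distances in the members and 20.0% in GC-poor windows. On single autosomes the shares were 5.15 ± 0.513% and 20.2 ± 2.51% (SD, n = 18), and the GC-rich share was lower on 18 of 18. The shares of distances above 1000 bp were 0.0865 and 0.563%.

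The most frequent nucleosome-like distance did not differ. Between 150 and 230 bp the distribution had its maximum at 180 bp in both classes, with 6.46% of distances in GC-rich and 5.15% in GC-poor windows, after a dip at 150 bp in both. Among distances of up to 250 bp the median was 160 bp in both classes. The shortest distance in the list is 100 bp, less than the 140 bp of a position, so neighbouring intervals can overlap. Distances near this lower limit, under 110 bp, were 9.03% of the total in GC-rich and 6.25% in GC-poor windows. Overlapping intervals cannot be occupied at once on 1 DNA molecule, and the list pools many cells.

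**Figure D4:**
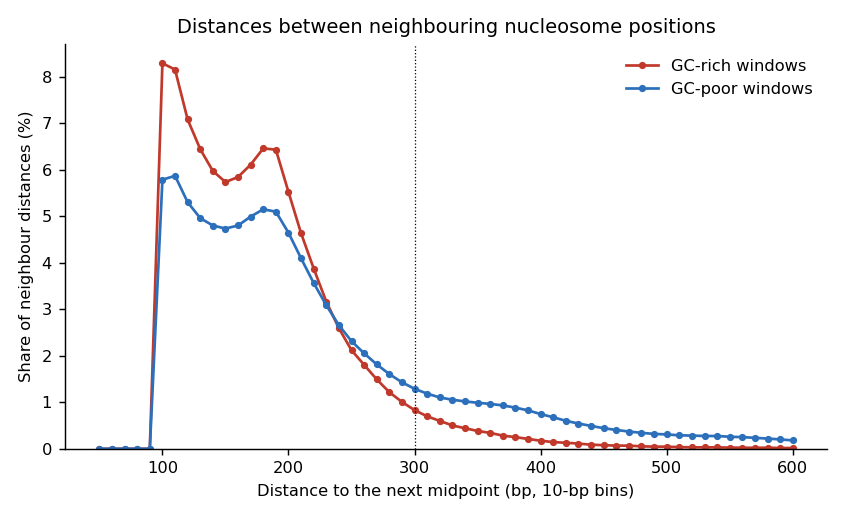
Share of neighbour distances in percent in 10-bp bins for GC-rich (red) and GC-poor (blue) windows, with a dotted line at 300 bp. Both curves start high at 100 bp, dip at 150 bp and have a maximum at 180 bp; beyond 300 bp the GC-poor curve lies higher.

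Long distances were rarer in the members at equal score also. Pairs of neighbours were sorted by the lower of their scores. With a lower score of 13 to 16 steps, 4.84% of the pairs in GC-rich windows and 13.4% of those in GC-poor windows were more than 300 bp apart, and the medians were 170 and 190 bp. With 5 to 8 steps the shares were 6.32 and 22.3%, and with 21 steps or more they were 5.51 and 9.79%. The median rose with the lower score in GC-rich windows, from 155 bp at 5 to 8 steps to 190 bp at 21 steps or more. In GC-poor windows it was 190 bp in each of these groups.

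The repeat length was taken from the distances between all pairs of midpoints within a window, up to 2000 bp, each frequency relative to the mean from 1000 to 2000 bp. In GC-rich windows the maxima of order 2 to 5 lay at 379, 569, 767 and 964 bp. In GC-poor windows they lay at 380, 570, 763 and 955 bp. The slope of location on order, which estimates the repeat length, was 195 bp in GC-rich and 192 bp in GC-poor windows. The difference was 3.78 bp. On single autosomes it averaged 2.02 ± 10.0 bp (SD, n = 18), with an SE of the mean of 2.36 bp, and was above 0 on 11 and below 0 on 7. A damped cosine fitted to the same curves gave 193.4 and 192.2 bp, with a difference of 0.686 ± 4.58 bp over autosomes and an SE of 1.08 bp. Over these 18 autosomes both mean differences were smaller than their SE, but this rested on chromosome 22 with its 11 GC-poor windows, where the cosine gave 193.5 and 207.8 bp. Without it the differences averaged 2.85 bp with an SE of 2.34 bp for the slope, and 1.57 bp with an SE of 0.659 bp for the cosine (n = 17 autosomes), so both exceeded their SE. In each case 11 of the 17 autosomes were above 0 and 6 below. The 190 members of chromosome 19, outside these values, had a slope of 184.6 bp, within the GC-rich range on the 18. Their cosine period, 187.11 bp, lay just below that range, 187.13 to 200.1 bp. Both were shorter than the GC-poor values of the class. With chromosome 19 left out of the pooled windows, the difference in slope was 5.87 bp.

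As a class, the members had a flatter oscillation than the GC-poor windows. The maxima of order 2 to 5 stood at 1.10, 1.05, 1.02 and 1.01 times the reference frequency in GC-rich windows, and at 1.14, 1.09, 1.06 and 1.04 in GC-poor windows. The minimum near 470 bp was 0.943 against 0.927. The maximum of order 2 was lower in GC-rich windows on 18 of the 18 autosomes, by a mean of -0.0335 ± 0.0136 (SD, n = 18). The values ranged from 1.07 to 1.13 in GC-rich and from 1.10 to 1.15 in GC-poor windows, so they overlapped between autosomes. The minimum was higher in GC-rich windows on 15 of the 18 autosomes.

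Lower maxima were not particular to the members. Over all interior windows the maximum of order 2 stood at 1.15 below 35% GC and was lowest, 1.092, in the windows of 47 to 50% GC, which are not members. It was 1.095 in members of 50 to 53% and 1.094 in those of 53 to 56%. In the 42 members of 56% GC and above it was 1.12, and the ratio of maximum to minimum was 1.231, against 1.227 in GC-poor windows. These are few windows, and their maximum lies within the range of GC-rich values on single autosomes. Their minimum, 0.911, lies below the GC-rich range on the 18 autosomes, 0.921 to 0.954.

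If each neighbour distance were independent of the one before it, the neighbour distances alone would give maxima of 1.03 at 332 bp in GC-rich and 1.05 at 365 bp in GC-poor windows. The measured maxima were higher and lay further out in both classes. The order of the classes in height was the same in the curves built from neighbour distances alone.

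**Figure D5:**
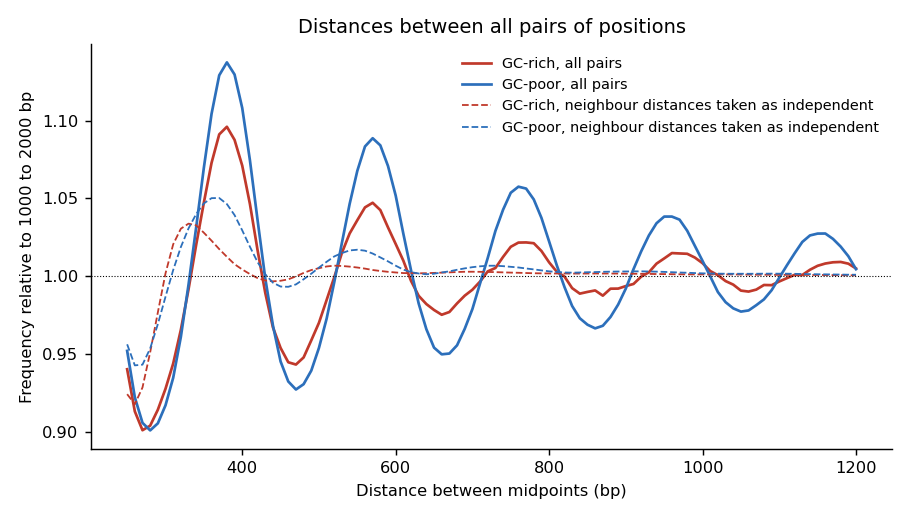
Frequency of distances between all pairs of midpoints, relative to the mean from 1000 to 2000 bp, in GC-rich (red) and GC-poor (blue) windows; dashed lines are built from the neighbour distances taken as independent. The maxima of both classes lie at nearly the same distances, and those of the GC-rich windows are lower, 1.10 against 1.14 at order 2.

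GC dipped beside the positions in the members. Averaged over all GC-rich positions, GC was 53.1% at the midpoint, reached 54.2% at 45 bp upstream and 54.1% at 45 bp downstream, and fell to 50.9 and 50.8% at 115 bp on either side. CpG followed, with 22.0 and 21.8 per kb at 45 bp and 18.9 per kb at 115 bp on both sides. In GC-poor windows GC was 38.5% at the midpoint and 38.7 and 38.8% at 45 bp, and was 36.5 and 36.6% at 115 bp. Between neighbours 160 to 220 bp apart, the middle 40 bp had 52.1% GC in GC-rich windows, 1.39 percentage points less than the 40 bp around the midpoints. In GC-poor windows the same comparison gave 38.6% at both, with a difference of -0.0647 percentage points. CpG was higher between such neighbours than at the midpoints in both classes. Between them it was 20.02 per kb in GC-rich windows, against 19.9 at the midpoints, and 7.52 per kb in GC-poor windows, against 6.02 at the midpoints. The rise over DNA further away was also larger in GC-poor windows, where GC at 495 bp upstream was 36.7%, than in GC-rich windows, where it was 52.5%. GC in these profiles is a property of the reference at the called positions, and the sequence preference of MNase can shape it.

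Among the members, density and score varied little with gene content. Members with no protein-coding gene start had 5359 positions per Mb, those with 1 to 2 starts 5394, those with 3 to 5 starts 5487 and those with 6 or more 5388. Distances above 1000 bp covered 3.91, 3.00, 1.47 and 2.73% of their bases, in the same order. The median densities of single windows were 5600, 5570, 5560 and 5550 per Mb. The median score was 19.7 and the median neighbour distance 170 bp in each of these 4 groups. The pair distances varied more. From members without a start to those with 6 or more, the maximum of order 2 lay at 383, 379, 375 and 374 bp, the maximum of order 3 at 573, 568, 567 and 559 bp, and the period of the damped cosine was 193.7, 195.1, 191.9 and 183.7 bp. The slope of location on order showed no such fall, with 191.6, 201.2, 198.4 and 190.9 bp in the same order. No spread over autosomes was computed for these groups. By CpG, the third of the members with the fewest had 5470 positions per Mb and a mean score of 20.9, and the third with the most had 5317 and 20.5. Distances above 1000 bp covered 2.14 and 4.11% of the bases in these groups, and outside them the densities were 5590 and 5546 per Mb.

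Within the members, scores were higher near transcript starts and in exons. Within 250 bp of an annotated transcript start the density was 5349 per Mb and the mean score 22.3. From 250 to 1000 bp these were 5424 per Mb and 21.1, and more than 20000 bp away they were 5450 per Mb and 20.5. Local GC moved with the score, with a median of 59.2% within 250 bp, 55.1% from 250 to 1000 bp and 53.1% more than 20000 bp away, and its part in the difference was not tested. Positions with more than 0.4 of their length in exons had a median score of 20.97, positions in introns 19.7, and positions outside genes 18.5. Their median local GC was 58.5, 53.1 and 51.7%, in the same order. Positions with 15 or more CpG around the midpoint, 1.23% of the total, had a median score of 18.5, below the 20.97 of those with 10 to 14.

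Single windows show the range. The extremes below are among members with at most 5% of their bases in distances above 1000 bp. The densest was chr15:74200001-74300000, with 600 positions, a GC of 53.1%, a median score of 22.2 and 1.84% of neighbour distances above 300 bp. It holds the starts of STRA6, a receptor for retinol-binding protein, and of CCDC33, and genes cover 100% of it. The least dense was chr19:14200001-14300000, with 433 positions, a GC of 50.9% and a median score of 16.04. It also had the largest share of distances above 300 bp, 18.5%, and holds the start of ADGRL1, an adhesion G protein-coupled receptor. The smallest share, 1.53%, was in 2 members, of which chr6:34500001-34600000 comes first. This window has 591 positions and a median score of 22.2, and holds the start of SPDEF, an ETS-family transcription factor, as well as parts of PACSIN1 and ILRUN.

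The highest median score, 23.4, was shared by 11 members. The first of these, chr1:31700001-31800000, has a GC of 55.8% and 577 positions, and holds the starts of COL16A1, a collagen chain, and of ADGRB2, another adhesion G protein-coupled receptor. The median neighbour distance reached its lowest value, 160 bp, in 197 members, the first of which, chr1:9300001-9400000, lies over SPSB1 and holds no start of a protein-coding gene. The member nearest to the class medians, chr1:30800001-30900000, has 557 positions, a median score of 19.7 and a median distance of 170 bp, and overlaps SDC3, which encodes a syndecan, a cell-surface proteoglycan.

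The member with the highest GC stood apart. The window chr12:34300001-34400000 has a GC of 60.8% and 40.2 CpG per kb, the upper end of both in the class, and no annotated gene. Its 515 positions had the lowest median score among these members, 14.8, and a median neighbour distance of 190 bp, shared by 2 members as the longest. Its density of 5150 per Mb was below the 10th percentile of the class, while 5.64% of its distances were above 300 bp, near the 5.26% of the class, and none of its bases lay in distances above 1000 bp. How well short reads can be placed in this window was not tested.

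At the threshold, the member with the lowest GC was chr4:6000001-6100000, with 50.01% GC, 535 positions and a median score of 18.5. It overlaps JAKMIP1 and C4orf50. The interior window just below 50%, chr2:236100001-236200000, had 543 positions and the same median score of 18.5, and holds the start of GBX2, a homeobox transcription factor.

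Of a panel of 16 pluripotency genes, POU5F1 alone has its start in a member. It encodes OCT4, a transcription factor that maintains pluripotency. Its window, chr6:31100001-31200000, has a GC of 50.8%, 529 positions, a median score of 18.5, a median neighbour distance of 180 bp and 7.39% of distances above 300 bp. It holds 7 starts of protein-coding genes, among them TCF19 and CCHCR1. Its density was low for a member, since 9.54% of members had a lower one. A lower median score was found in 8.48% of members, ties not counted, and 18.5 is also the 10th percentile of the class. POU5F1 is 1 of the 12 panel genes that start in interior windows (8.33%), a count too small to set against the 17.2% of all starts of protein-coding genes in interior windows that lie in members. The other 11 start in interior windows below 50% GC, 3 of the panel lie less than 5 Mb from a chromosome end and 1 is not on an autosome. Of those 3, TERT, which encodes the catalytic subunit of telomerase, and UTF1 start in windows of 58.8 and 60.9% GC. The window of DNMT3B, a DNA methyltransferase gene, had 48.6% GC, 5530 positions per Mb and a median score of 17.3. That of SOX2, a partner of OCT4, had 41.3% GC, 5110 positions per Mb and a median score of 14.8, and that of LIN28B, which encodes an RNA-binding protein, had 38.2% GC, 4640 positions per Mb and a median score of 13.6.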

How the data were processed

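The authors trimmed reads with Trimmomatic 0.40 and used the nucMACC workflow on GRCh38, leaving out blacklisted regions. The deposited score is a signal whose scaling is not stated. The program that placed the positions is not given in the sources used here, nor are the reads behind a score. The list was used without a filter. Midpoints were taken 70 bp from the interval start, and gene features came from GENCODE release 44, whereas the study's methods name release 48.

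The rule that defines the members uses the reference sequence alone. That rule, the windows and the lists were chosen with earlier results of these data known. Named windows were the extremes of density, median score, median neighbour distance and share of distances above 300 bp, the highest GC, those next to the threshold and the one nearest to the class medians. Windows on chromosome 8 were replaced by the next one, and no example sequence was taken from that chromosome. Ties were resolved by chromosome and coordinate. Pair distances were counted in 10-bp bins, corrected for window edges and smoothed over 5 bins. GC and gene features came from the reference, and the repeat share of the windows was not analysed here. With 1 pooled list and no replicates, the spread is the SD over autosomes with at least 10 windows of both classes, and no p-value is given. For each class, 95% Wilson intervals were taken for shares of all neighbour distances: under 110 bp, 150 to 209 bp and above 300 bp. They extended at most 0.120 percentage points to either side and cover counting error only. Other shares are given without an interval. Tools were matplotlib 3.10.9, pandas 2.3.3, SciPy 1.17.1, NumPy 2.4.6 and Python 3.11.15, and the steps were tested on simulated positions. Alternatives in positions, thresholds, windows, distances and smoothing were tried.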

Additional observations from a re-analysis of the deposited data

How the results depend on the processing

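Of 77 values under other settings, apart from leaving out autosomes in turn, 71 moved by less than 1 SD over autosomes and 6 by more, and none changed direction. For the density ratio (1.31, SD 0.481) and the repeat length difference (3.78 bp, SD 10.0 bp), the SD is wider than the distance from no difference. A value of no difference would there also have moved by less than 1 SD, so the count says little about these results. The choice of positions mattered most. When only positions whose score reached the median of interior windows were used, the density ratio was 2.63, the difference in median neighbour distance (GC-rich minus GC-poor) was -190 bp, that in the height of the order 2 maximum was -0.180 and that in median score was 3.70. This setting removes 24.6% of the positions in GC-rich and 62.5% of those in GC-poor windows. With GC-poor windows below 36% the difference in median distance was -30 bp, and with pairs whose scores were both at or above the median it was -10 bp. The density ratio averaged over autosomes was 1.44, and 1.33 without chromosome 22, a setting chosen after the data were seen, also for the repeat lengths without that chromosome. Chromosome 22 widens the SD of this ratio, and against the SD of 0.111 without it the 1.44 lies more than 1 SD from 1.31. When each of the 22 autosomes was left out in turn, the density ratio ranged from 1.30 to 1.32, the difference in median distance from -20 to -20 bp, that in the height of the maximum from -0.0425 to -0.0399, that in repeat length from 3.096 to 7.27 bp and that in median score from 7.40 to 7.40. The other settings gave differences in repeat length from 1.17 to 8.30 bp. The SD is that of single autosomes and not the error of a value over all of them. The difference in median score at like local GC is a mean over the bins from 35 to 55% only. It was 1.23 with local GC over the deposited interval and 0.617 over a wider one. No paired analysis was possible because a pooled list keeps no libraries apart. The unknown read depth limits how firmly a single score or distance can be read.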
